A study of Mus musculus with 34 samples.

Results

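The AP-1 proteins and their companions among the immediate early transcription factors were followed in injured mouse spinal cord through 10 genes: Fos, Fosb, Fosl1, Fosl2, Jun, Junb, Jund, Atf3, Egr1 and Egr3. They were taken by name, as every probe set to which the platform annotation gives 1 of these symbols, and made up 15 of the 45101 probe sets and 10 of the 18194 genes named on the array. The arrays carried RNA of thoracic cord from mice on a C57BL/6J background, backcrossed for over 20 generations and aged 8 to 12 weeks. KO animals lacked trkB.T1, the truncated form of the neurotrophin receptor TrkB that has no kinase domain, and WT animals carried it. Both genotypes were sampled as controls labelled sham and, after a moderate contusion of the thoracic cord, at day 1, day 3 or day 7. The groups were sham KO with 4 arrays, sham WT with 4, day 1 KO with 4, day 1 WT with 5, day 3 KO with 5, day 3 WT with 4, day 7 KO with 4 and day 7 WT with 4. The promoter or line behind the KO allele and any pooling of animals are not given in the sources used here. Whether sham animals were operated on is likewise not given, and their description codes begin with Nav.

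AP-1 is not a single protein but a family of dimers of basic leucine zipper factors, in which a Jun protein pairs with another Jun protein, a Fos protein or an Atf protein and binds the TGACTCA element or its relatives. Fos, Fosb, Jun, Junb, Egr1 and Egr3 are classical immediate early genes, switched on without new protein synthesis when calcium or MAP kinase signals reach serum response factor and CREB, and Fosl1, Fosl2 and Atf3 follow or outlast them in many cells. In the injured nervous system Jun and Atf3 are best known as markers of axotomised neurons and of reactive and invading non-neuronal cells.

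Values were log2 signals with a lowest value of 2.17 in the table, and 33.7% of all values lay within 0.1 of it. A difference from a group at this floor is therefore a lower bound. Ntrk2, the gene of TrkB, read 9.19 to 11.38 in KO arrays and 9.34 to 11.14 in WT arrays on probe set 1458622_at. On probe set 1420838_at it read 3.12 to 4.94 in KO arrays and 10.01 to 10.85 in WT arrays, apart from the library labelled sham KO replicate 2, which read 9.46. Without that library the number of genes of the set called in KO cord against sham KO was 7 for each injured time, as it was with it. The arrays titled day 1 WT replicates 1 and 2 name day 7 and sham in their source and time fields, and title and description were followed. Without both arrays 7 genes of the set were still called in day 1 WT against sham WT, and of the calls described afterwards the difference of Egr3 between day 3 WT or day 7 WT and day 1 WT was lost (adjusted p = 0.143 and 0.137). Skeletal muscle transcripts varied from array to array, with mean log2 values over 14 muscle genes of 7.67 to 10.67 in sham KO and 3.72 to 9.09 in sham WT. All 14 were called lower in day 1 KO, where the means were 3.74 to 6.49, than in sham KO (23.7% of all probe sets lower). In a whole-tissue sample, fewer cells of a type and less RNA per cell cannot be told apart.

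Promoters of 7 of the 10 genes were found in the RefSeq table of build GRCm38.p6, and the 120 bases just upstream of the start are printed for 5 of them because these 5 stand for the different time courses described afterwards: Fos stepped down after day 1, Jun did so less steeply, Fosl2 held until day 3, Atf3 held to day 7, and Jund barely moved. Each is written 5′ to 3′ along its gene, and capitals mark a motif found by search on both strands.
Fos (chr12:85473770-85473889, plus strand): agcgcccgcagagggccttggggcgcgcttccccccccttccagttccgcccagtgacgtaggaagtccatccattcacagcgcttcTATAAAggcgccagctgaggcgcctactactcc
Fosl2 (chr5:32136352-32136471, plus strand): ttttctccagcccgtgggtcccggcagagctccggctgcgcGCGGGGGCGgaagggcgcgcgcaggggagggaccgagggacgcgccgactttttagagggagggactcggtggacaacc
Jun (chr4:95052223-95052342, minus strand): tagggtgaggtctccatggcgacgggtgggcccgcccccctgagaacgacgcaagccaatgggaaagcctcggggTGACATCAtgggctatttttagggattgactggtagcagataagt
Jund (chr8:70697619-70697738, plus strand): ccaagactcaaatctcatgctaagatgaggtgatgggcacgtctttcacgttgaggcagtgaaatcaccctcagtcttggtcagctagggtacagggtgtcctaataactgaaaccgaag
Atf3 (chr1:191183334-191183453, minus strand): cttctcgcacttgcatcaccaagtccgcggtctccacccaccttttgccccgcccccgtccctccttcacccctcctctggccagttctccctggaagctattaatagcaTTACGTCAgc
In Fos the capitals mark TATAAA, 33 to 28 bases upstream of the start. In Jun they mark TGACATCA, the site type bound by Jun and Atf2, 45 to 38 bases upstream. In Fosl2 they mark an Egr site, GCGGGGGCG, 79 to 71 bases upstream, and Fosb carried the same letters 50 to 42 bases upstream. In Atf3 they mark TTACGTCA, a relative of the CRE, 10 to 3 bases upstream, which was added to the search after the sequence had been read. Jund and Junb held none of the motifs searched in the 250 upstream bases. Of 32851 promoters of that length, TATAAA (or TTTATA) was in 12.4%, TGACATCA (or TGATGTCA) in 2.93%, an Egr site (GCGTGGGCG, GCGGGGGCG or their reverse complements) in 3.06% and TTACGTCA (or TGACGTAA) in 0.447%. The AP-1 element itself (TGACTCA or TGAGTCA) was in 4.46%, the CRE (TGACGTCA) in 1.55% and the CArG box in 1.47%. None of the 7 promoters held a match to any of these 3 within the 250 bases searched. Bases further upstream were not searched, and letters close to a motif, such as tgacgtag in Fos, were not counted. Such a match describes letters and is not a bound site.

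Fos, the best known partner of the Jun proteins, stepped down at each time after day 1. On probe set 1423100_at it read 8.61, 9.17, 9.47 and 9.29 in sham KO, 12.11, 11.72, 11.41 and 11.82 in day 1 KO, 10.74, 10.64, 10.89, 11.26 and 10.7 in day 3 KO, and 10.08, 10.1, 9.91 and 9.89 in day 7 KO. It read 8.65, 8.95, 9.37 and 8.66 in sham WT, 12.11, 11.86, 11.69, 11.92 and 11.56 in day 1 WT, 10.7, 11.26, 11.08 and 10.81 in day 3 WT, and 10.04, 10.19, 10.23 and 9.87 in day 7 WT. With both genotypes pooled, no array of any of the 4 times overlapped with an array of another time, and the order was day 1, day 3, day 7 and sham from high to low. At day 1 Fos was 6.18-fold higher than sham in KO (log2 difference 2.63 ± 0.18, limma standard error, adjusted p = 1.35e-12) and 7.58-fold higher in WT (2.92 ± 0.17, adjusted p = 2.97e-14). At day 7 it was still 1.81-fold above sham in KO (0.86 ± 0.18, adjusted p = 0.000262) and 2.25-fold above sham in WT (1.17 ± 0.18, adjusted p = 3.81e-06). Both steps down passed the test in both genotypes. Day 3 lay below day 1 by a log2 difference of -0.92 in KO and -0.87 in WT, and day 7 below day 3 by -0.85 in KO and -0.88 in WT, with adjusted p-values between 6.87e-05 and 0.000708 in limma.

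Fosl1 encodes Fra-1, a Fos protein without the transactivation domain of Fos, whose gene is itself a textbook AP-1 target. Its probe set 1417487_at was at the floor in every sham and day 7 array, 2.17 or 2.18. At day 1 it read 5.56, 4.42, 4.4 and 4.57 in KO and 5.09, 4.39, 4.25, 5.61 and 3.89 in WT. At day 3 it was back near the floor, with 2.18, 2.19, 2.22, 2.75 and 2.18 in KO and 2.35, 2.49, 2.2 and 2.18 in WT. Day 1 arrays thus stood clear of all others in both genotypes. The probe set entered the test only through 8 day 1 arrays at or above 4, so it had to differ between times, and its rise is a lower bound: at least 5.89-fold over sham in day 1 KO (log2 difference 2.56, adjusted p = 1.04e-09) and at least 5.53-fold in day 1 WT (2.47, adjusted p = 4.82e-10). The differences from sham at day 3 were 0.13 in KO and 0.13 in WT, with adjusted p-values of 0.643 and 0.66. A second Fosl1 probe set, 1417488_at, never exceeded 2.57 and was not tested.

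Fosl2, which encodes Fra-2, held its level longer than Fos. On probe set 1437247_at it read 6.14, 5.82, 6.39 and 6.6 in sham KO, 8.9, 8.54, 8.01 and 8.68 in day 1 KO, 8.71, 8.31, 9.15, 8.99 and 8.2 in day 3 KO, and 7.68, 7.64, 7.72 and 7.7 in day 7 KO. It read 5.89, 6.29, 6.28 and 5.75 in sham WT, 8.96, 8.41, 8.48, 8.85 and 8.6 in day 1 WT, 8.23, 8.67, 8.93 and 8.38 in day 3 WT, and 7.8, 7.56, 7.76 and 7.94 in day 7 WT. Day 1 and day 3 arrays overlapped, and both stood above day 7, which stood above sham. The day 1 difference from sham was 2.29 ± 0.20 in KO (4.91-fold, adjusted p = 3.79e-10) and 2.61 ± 0.19 in WT (6.1-fold, adjusted p = 5.97e-12). Between day 3 and day 1 the difference was 0.14 in KO (95% interval -0.25 to 0.53) and -0.11 in WT (-0.5 to 0.28), and neither passed the test. The fall came afterwards: day 7 was below day 3 by -0.99 in KO (adjusted p = 0.00039) and -0.79 in WT (adjusted p = 0.00634). The other Fosl2 probe set, 1422931_at, stayed between 2.17 and 2.53 on all arrays.

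Fosb, the remaining Fos protein and the gene of the long-lived splice product deltaFosB, could not be followed. Its single probe set, 1422134_at, lay within 0.1 of the floor on 33 of 34 arrays and read 2.29 on day 1 KO replicate 4. It was left out of the test, so 9 of the 10 genes were tested.

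Jun, the central subunit of AP-1 and the substrate of the JNK kinases, rose to its highest values at day 1 and then fell only part of the way. On probe set 1417409_at it read 8.94 to 9.06 in sham KO and 8.87 to 9.12 in sham WT. It read 10.97, 10.69, 10.69 and 10.94 in day 1 KO and 11.12, 10.83, 10.84, 11.09 and 10.6 in day 1 WT. At day 3 it ranged from 10.2 to 10.72 in KO and from 10.04 to 10.55 in WT, and at day 7 from 10 to 10.16 in KO and from 9.9 to 10.23 in WT. Every injured array was above every sham array. The differences from sham at day 1, day 3 and day 7 were 1.83, 1.44 and 1.07 in KO and 1.90, 1.28 and 1.06 in WT, with standard errors of 0.11 or 0.12 and adjusted p-values no higher than 2.19e-08. Day 3 was below day 1 in KO (-0.39, adjusted p = 0.00595) and in WT (-0.62, adjusted p = 0.000146). Day 7 was below day 3 in KO (-0.37, adjusted p = 0.0143), and the difference in WT was -0.22 (adjusted p = 0.193). The KO step from day 3 to day 7 did not pass without day 3 KO replicate 3 (-0.30, adjusted p = 0.0591) or without day 3 KO replicate 4 (-0.32, adjusted p = 0.0516). The second Jun probe set, 1448694_at, gave 1.78 in KO and 1.70 in WT at day 1 against sham, and its differences between day 7 and day 3 were -0.12 in KO and 0.06 in WT, neither called.

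Junb, a Jun protein that can restrain Jun and is strongly inducible by cytokines, started from near the floor. On probe set 1415899_at it read 2.27, 2.56, 2.56 and 2.56 in sham KO, 5.62, 5.58, 4.63 and 5.54 in day 1 KO, 4.76, 4.32, 5.1, 5.24 and 4.23 in day 3 KO, and 4.13, 4.08, 3.77 and 4.06 in day 7 KO. It read 2.86, 2.37, 2.36 and 2.27 in sham WT, 5.64, 5.32, 4.64, 5.5 and 5.1 in day 1 WT, 4.24, 5.76, 4.54 and 4.35 in day 3 WT, and 4.01, 4.02, 4.23 and 4.2 in day 7 WT. All injured arrays were above all sham arrays, day 1 and day 3 arrays overlapped, and day 3 WT replicate 2 was higher than any day 1 array. Only injured arrays took Junb past the filter. Its differences from sham were 2.86 at day 1 and 1.53 at day 7 in KO, and 2.77 at day 1 and 1.65 at day 7 in WT, all called. The step from day 1 to day 3 was -0.61 in KO (adjusted p = 0.0469) and -0.52 in WT (adjusted p = 0.128). Both readings turned on single arrays. The WT step became -0.86 (adjusted p = 0.00496) without day 3 WT replicate 2, and the KO step did not pass when day 1 KO replicate 1, 2 or 4 or day 3 KO replicate 1, 2 or 5 was left out, with adjusted p-values of 0.063 to 0.129. The KO step from day 3 to day 7 was -0.72 (adjusted p = 0.0318) and did not pass when day 3 KO replicate 3 or 4 or day 7 KO replicate 2, 3 or 4 was left out, with adjusted p-values of 0.0546 to 0.103.

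Jund, the Jun protein present in most resting cells, changed little. On probe set 1449117_at it read 11.5, 11.5, 11.42 and 11.48 in sham KO, 11.59, 11.48, 11.34 and 11.48 in day 1 KO, 11.24, 11.44, 11.18, 11.11 and 11.48 in day 3 KO, and 11.64, 11.84, 11.59 and 11.56 in day 7 KO. It read 11.59, 11.55, 11.54 and 11.38 in sham WT, 11.57, 11.38, 11.4, 11.48 and 11.49 in day 1 WT, 11.48, 11.74, 11.44 and 11.28 in day 3 WT, and 11.73, 11.74, 11.86 and 11.67 in day 7 WT. Day 1 arrays overlapped with sham arrays in both genotypes, and day 7 arrays lay above sham arrays in both. At day 1 the difference from sham was 0 in KO (95% interval -0.18 to 0.18) and -0.05 in WT (-0.22 to 0.12). At day 3 it was -0.19 in KO (adjusted p = 0.0501), and past the threshold without day 3 KO replicate 2 (-0.22, adjusted p = 0.0249) or 5 (-0.24, adjusted p = 0.0158), and -0.03 in WT (adjusted p = 0.796). At day 7 it was 0.18 in KO (adjusted p = 0.0929) and 0.24 in WT, or 1.18-fold (adjusted p = 0.0243). That WT call was lost without day 7 WT replicate 3 (0.20, adjusted p = 0.0824) or without sham WT replicate 4 (0.19, adjusted p = 0.0919). Day 7 was above day 3 in KO (0.37, adjusted p = 0.00175) and in WT (0.26, adjusted p = 0.0327), and the WT call was lost when any 1 of day 3 WT replicates 1, 3 and 4 or day 7 WT replicates 1, 2 and 3 was left out. The second Jund probe set read 2.17 on all 34 arrays.

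Atf3, a stress-induced factor that dimerises with Jun, was higher at all 3 injured times, with no called step down. On probe set 1449363_at it read 3.7, 2.57, 2.28 and 3.7 in sham KO, 7.86, 7.07, 7.13 and 7.41 in day 1 KO, 7.14, 7.38, 8.36, 8.4 and 7.43 in day 3 KO, and 7.54, 7.36, 7.39 and 7.46 in day 7 KO. It read 2.54, 2.28, 3.7 and 3.41 in sham WT, 7.73, 7.44, 7.32, 8.17 and 6.73 in day 1 WT, 7.5, 7.02, 7.85 and 7.28 in day 3 WT, and 7.8, 7.37, 7.82 and 7.94 in day 7 WT. The lowest injured array stood above the highest sham array by several log2 units, and the 3 injured times overlapped with each other. The 26 injured arrays alone carried Atf3 past the filter. The differences from sham were 4.31 (19.8-fold) at day 1, 4.68 (25.7-fold) at day 3 and 4.38 (20.8-fold) at day 7 in KO, and 4.50 (22.6-fold), 4.43 (21.6-fold) and 4.75 (27-fold) in WT, all called. None of the differences between injured times passed the test. Between day 7 and day 1 the difference was 0.07 in KO (95% interval -0.62 to 0.77) and 0.26 in WT (-0.41 to 0.92).

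Egr1, a zinc finger factor induced through the same serum response elements as Fos, followed Fos closely. On probe set 1417065_at it read 9.72 to 10.07 in sham KO and 9.65 to 10.08 in sham WT. It read 11.9, 11.72, 11.42 and 11.65 in day 1 KO and 11.77, 11.46, 11.45, 11.37 and 11.63 in day 1 WT. At day 3 it ranged from 10.53 to 10.98 in KO and from 10.61 to 11.4 in WT, and at day 7 from 10.16 to 10.41 in KO and from 10.25 to 10.62 in WT. Injured arrays of each genotype lay above its sham arrays at all 3 times. The differences from sham at day 1, day 3 and day 7 were 1.80, 0.89 and 0.44 in KO and 1.69, 1.05 and 0.58 in WT, all called, the smallest with adjusted p = 0.0105 for day 7 KO. Day 3 was below day 1 in KO (-0.91, adjusted p = 2.37e-06) and in WT (-0.64, adjusted p = 0.000539). Day 7 was below day 3 in KO (-0.45, adjusted p = 0.0108) and in WT (-0.47, adjusted p = 0.0165), and the WT step was lost without day 3 WT replicate 2 (-0.30, adjusted p = 0.121) or without day 7 WT replicate 1 or 2 (adjusted p = 0.0527 and 0.0617).

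Egr3, an Egr family member induced by neuronal activity and needed for muscle spindles, went the other way. On probe set 1436329_at it read 7.07, 6.82, 7.22 and 7.01 in sham KO, 7.24, 6.51, 5.41 and 6.59 in day 1 KO, 6.7, 5.82, 5.53, 5.9 and 5.95 in day 3 KO, and 6.13, 5.91, 6.04 and 6.12 in day 7 KO. It read 6.55, 6.94, 7.01 and 6.88 in sham WT, 6.08, 7.08, 6.27, 5.34 and 7.06 in day 1 WT, 5.61, 5.5, 5.27 and 5.93 in day 3 WT, and 5.72, 5.63, 5.45 and 5.59 in day 7 WT. Day 1 was widely scattered and overlapped with sham, whereas day 3 and day 7 arrays lay below the sham arrays of their genotype. Day 1 differed from sham by -0.59 in KO (adjusted p = 0.111) and by -0.48 in WT (adjusted p = 0.166), neither called. Day 3 was lower than sham by -1.05 in KO (adjusted p = 0.00207) and by -1.27 in WT (adjusted p = 0.000645). Day 7 was lower by -0.98 in KO (adjusted p = 0.00885) and by -1.25 in WT (adjusted p = 0.00102). Without day 1 KO replicate 1 the day 1 KO difference was -0.86 (adjusted p = 0.028). The difference between day 3 and day 1 was -0.46 in KO (adjusted p = 0.195), and without day 1 KO replicate 3 it was -0.80 (adjusted p = 0.0199). In WT it was -0.79 (adjusted p = 0.0393) and was lost when any 1 of day 3 WT replicates 1, 2 and 3 or day 1 WT replicates 2, 3 and 5 was left out, with adjusted p-values of 0.0556 to 0.122. Neuronal transcripts were also lower at day 7. Against sham, 10 of 12 neuron markers were called lower in day 7 KO (27.4% of all probe sets lower). In day 7 WT it was 12 of 12 (31.7%). Their mean log2 values were 11.99 to 12.04 in day 7 KO and 12.59 to 12.72 in sham KO, and 11.86 to 12 in day 7 WT and 12.61 to 12.67 in sham WT. The neuron mean was lowest at day 3, at 11.56 in KO and 11.75 in WT, and was 12 and 11.92 at day 7. The Egr3 mean was 5.98 in KO and 5.58 in WT at day 3, and 6.05 and 5.6 at day 7. The part of the neuronal transcripts in the Egr3 result was not tested. The second Egr3 probe set read 2.17 on all 34 arrays.

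**Figure D1:**
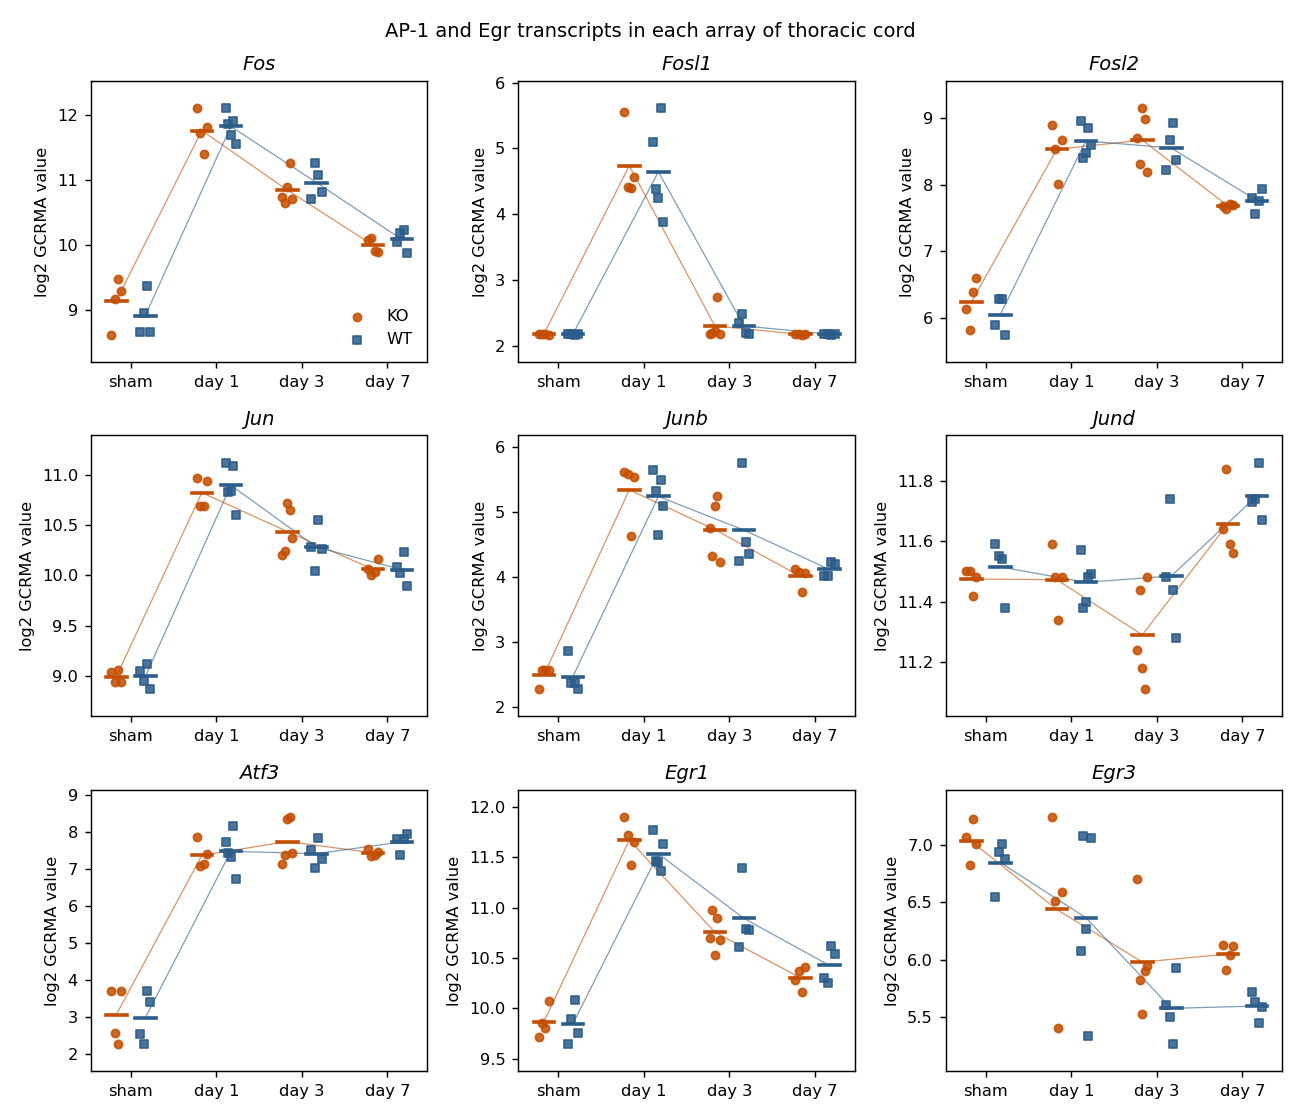
Log2 GCRMA value of each of the 9 tested genes on every array, by time on the horizontal axis, with KO circles left of WT squares; short bars are group means, thin lines join them, and each panel has its own vertical scale. Fos, Jun, Junb and Egr1 have their highest means at day 1, Fosl1 leaves 2.17 clearly at day 1 alone, Atf3 keeps its level from day 1 to day 7, and Egr3 means fall below sham.

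Counted together, 7 of the 9 tested genes were called higher and 0 lower in day 1 KO against sham KO, where 44.6% of all tested probe sets were called, 20.9% higher and 23.7% lower. The same 7 genes, Fos, Fosl1, Fosl2, Jun, Junb, Atf3 and Egr1, were called higher in day 1 WT against sham WT, where 52.9% of all probe sets were called, 24.0% higher and 28.9% lower. In day 3 KO against sham KO the count was 6 higher and 1 lower (64.8% of all probe sets called, 28.2% higher and 36.7% lower), and in day 3 WT against sham WT it was also 6 higher and 1 lower (61.8% called, 26.1% higher and 35.7% lower). In day 7 KO against sham KO it was 6 higher and 1 lower (47.2% called, 19.8% higher and 27.4% lower), and in day 7 WT against sham WT it was 7 higher and 1 lower (53.5% called, 21.8% higher and 31.7% lower). The day 7 counts differ by Jund, and the difference between genotypes in its injury response was -0.06 (adjusted p = 1). Fosl1, Junb and Atf3 passed the filter only through injured arrays, so these counts describe the genes and do not measure the set against the background. The 3 comparisons of a genotype share its sham arrays. With the mean muscle signal of each array as a covariate, an alternative added after the data were seen, the KO count was 7, 8 and 5 from day 1 to day 7, where at day 7 the calls of Egr1 (0.38, adjusted p = 0.052) and Egr3 (-0.80, adjusted p = 0.0575) were lost, and the WT count was 7, 7 and 8.

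**Figure D2:**
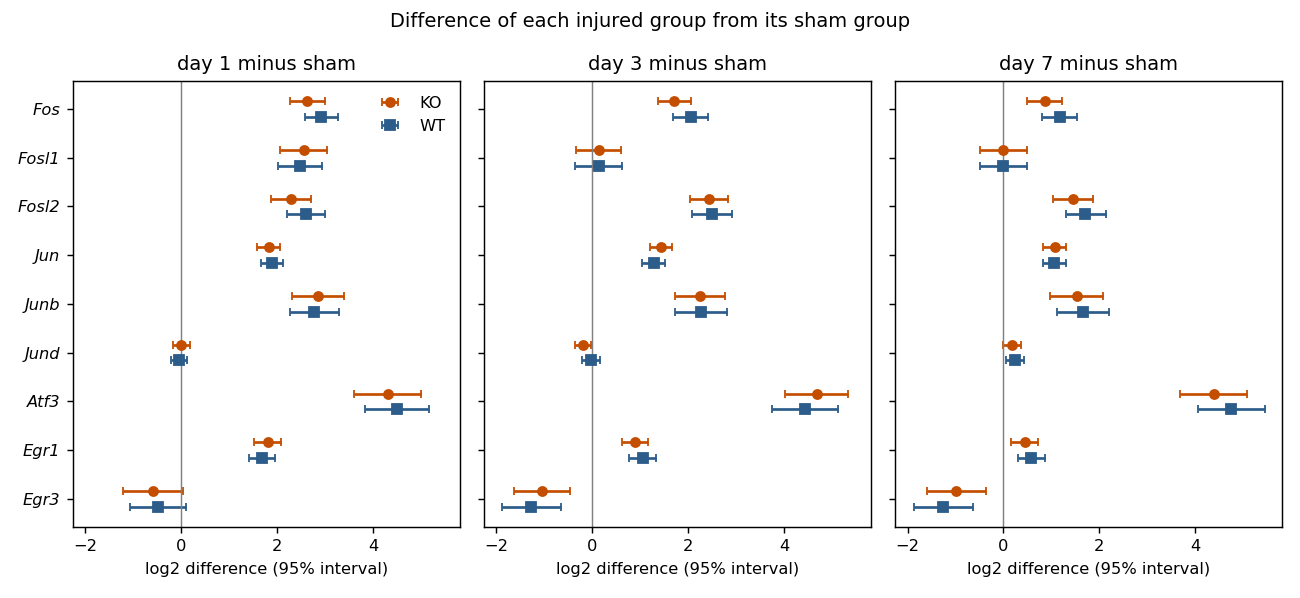
Log2 difference of each injured group from the sham group of its genotype, in 3 panels for day 1, day 3 and day 7; points are limma estimates for KO (orange circles, upper) and WT (blue squares, lower), and bars are 95% intervals. Fos shrinks from 2.63 in KO and 2.92 in WT at day 1 to 0.86 and 1.17 at day 7, while Atf3 stays above 4 throughout.

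Among the differences between injured times, 5 of the 9 genes were lower in day 3 KO than in day 1 KO (46.6% of all probe sets called, 19.4% higher and 27.2% lower), and 5 were lower in day 3 WT than in day 1 WT (27.1% called, 11.7% higher and 15.4% lower). Fos, Fosl1, Jun and Egr1 were common to both counts. Junb was the fifth in KO and Egr3 the fifth in WT. In day 7 KO against day 3 KO 5 were lower and 1 higher (30.4% called, 16.2% higher and 14.2% lower), and in day 7 WT against day 3 WT 3 were lower and 1 higher (19.2% called, 8.64% higher and 10.5% lower). Fos, Fosl2 and Egr1 were lower in both genotypes and Jund was higher in both. Over the whole span, a comparison added later, 6 were lower in day 7 KO than in day 1 KO (36.8% called, 16.5% higher and 20.3% lower). In day 7 WT against day 1 WT 7 were lower and 1 higher (36.8% called, 16.1% higher and 20.7% lower). The 7 were Fos, Fosl1, Fosl2, Jun, Junb, Egr1 and Egr3. Egr3 was lost when any 1 of day 7 WT replicates 2, 3 and 4 or day 1 WT replicates 2 and 5 was left out. Its adjusted p-values in limma were then 0.0553 to 0.113. Fosl1, among the lower genes in each comparison with day 1, passed the filter only through day 1 arrays and so had to differ between times. These counts therefore describe the genes and do not measure the set against the background. Whether any of these steps differed between genotypes was not tested.

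No gene of the set was called between KO and WT. It was 0 of 9 in sham (0.0529% of all probe sets called), at day 1 (0.549%), at day 3 (0.0366%), at day 7 (0.0407%) and for the mean over the 4 conditions (0.126%), each in limma with Benjamini-Hochberg adjustment. An unadjusted p under 0.05 was reached by 1 gene at day 3 and by 0 in the other 4 comparisons. The one was Jund, which differed by -0.20 at day 3 (95% interval -0.37 to -0.03, adjusted p = 0.429). At day 1 the 95% intervals of the KO minus WT difference lay between -0.77 and 0.66 for all 9 genes: they were -0.41 to 0.28 for Fos, -0.37 to 0.55 for Fosl1, -0.31 to 0.15 for Jun, -0.13 to 0.40 for Egr1 and -0.77 to 0.55 for Atf3. Egr3 at day 7 had KO arrays, from 5.91 to 6.13, that did not overlap with WT arrays, from 5.45 to 5.72, and yet the difference of 0.45 had a 95% interval of -0.16 to 1.07 and an adjusted p of 1.

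The injury response itself was compared between genotypes with an interaction term, and 0 of 9 genes passed at day 1 (0.0692% of all probe sets called), at day 3 (0.00%) and at day 7 (0.00407%), with 0 at an unadjusted p under 0.05 at each time. For Fos the KO response minus the WT response was -0.29 at day 1 (95% interval -0.80 to 0.21), -0.35 at day 3 (-0.85 to 0.16) and -0.31 at day 7 (-0.83 to 0.20), 3 values that share the sham arrays, where Fos was higher in KO by 0.23 (-0.13 to 0.59). For Atf3 the interval at day 1 ran from -1.15 to 0.77 and at day 7 from -1.36 to 0.61, so these arrays do not exclude a difference within these bounds. Over the same samples, the 7 tested transcripts of cycling cells were all called lower in day 1 KO than in day 1 WT (0.549% of all probe sets called). Their mean log2 values were 3.58 to 4.37 in KO arrays and 6.45 to 7.27 in WT arrays.

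**Figure D3:**
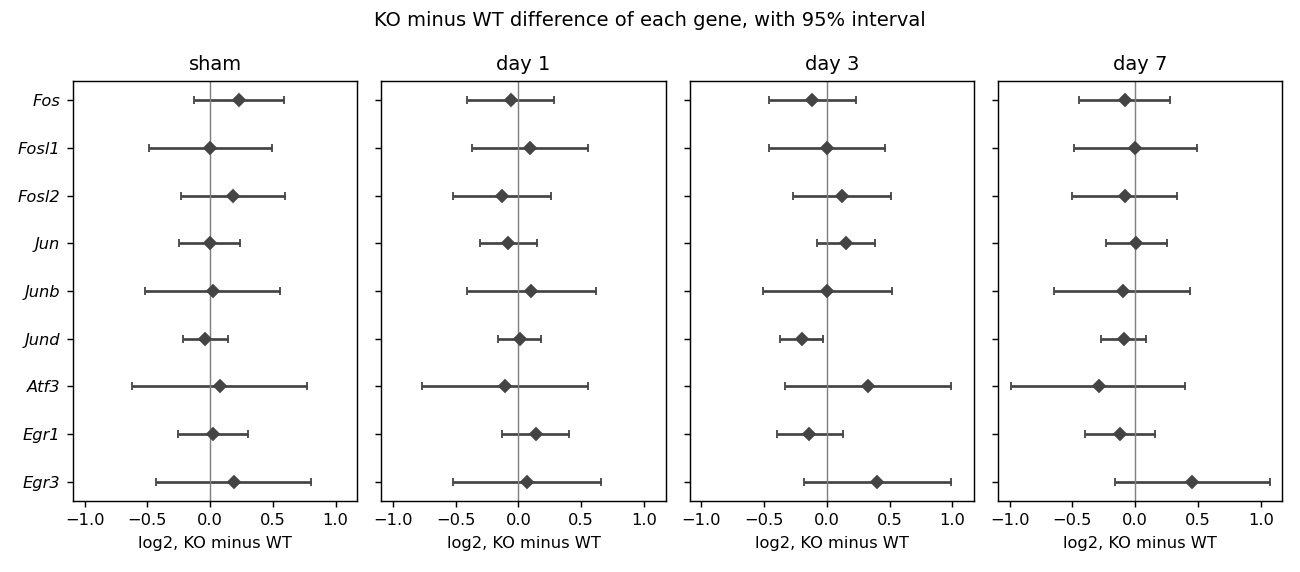
KO minus WT log2 difference of each tested gene in sham, day 1, day 3 and day 7 cords, as limma estimates with 95% intervals; the vertical line marks 0. The Jund interval at day 3, -0.37 to -0.03, is the one interval of the 36 that does not include 0, and its adjusted p is 0.429.

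Some arrays lay on the same side of their group mean for most of the genes. Day 1 KO replicate 1 was above its group mean for 9 of 9 genes and day 1 KO replicate 3 for 0 of 9. Among day 1 WT arrays, replicate 1 was above for 8 of 9 and replicate 3 for 0 of 9. At day 3, KO replicate 4 was above for 7 of 9 and KO replicate 5 for 1 of 9. The neuron markers were low on day 3 KO replicates 3 and 4, with means of 10.94 and 11.09, against 11.71 to 12.03 on the other three. Microglia and macrophage markers averaged 10.38 and 10.75 on these arrays, the highest 2 of the group, and skeletal muscle markers averaged 13.29 on replicate 3, the highest of all 34 arrays, and 4.82 on replicate 4. Both arrays had high Jun (10.72 and 10.65), Junb (5.1 and 5.24) and Atf3 (8.36 and 8.4) for their group. Microglia and macrophage markers averaged 8.55 on day 1 KO replicate 1 and 7.95 on replicate 3, which were the highest and the lowest of that group. The part of these 3 marker lists in these shared deviations was not tested.

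**Figure D4:**
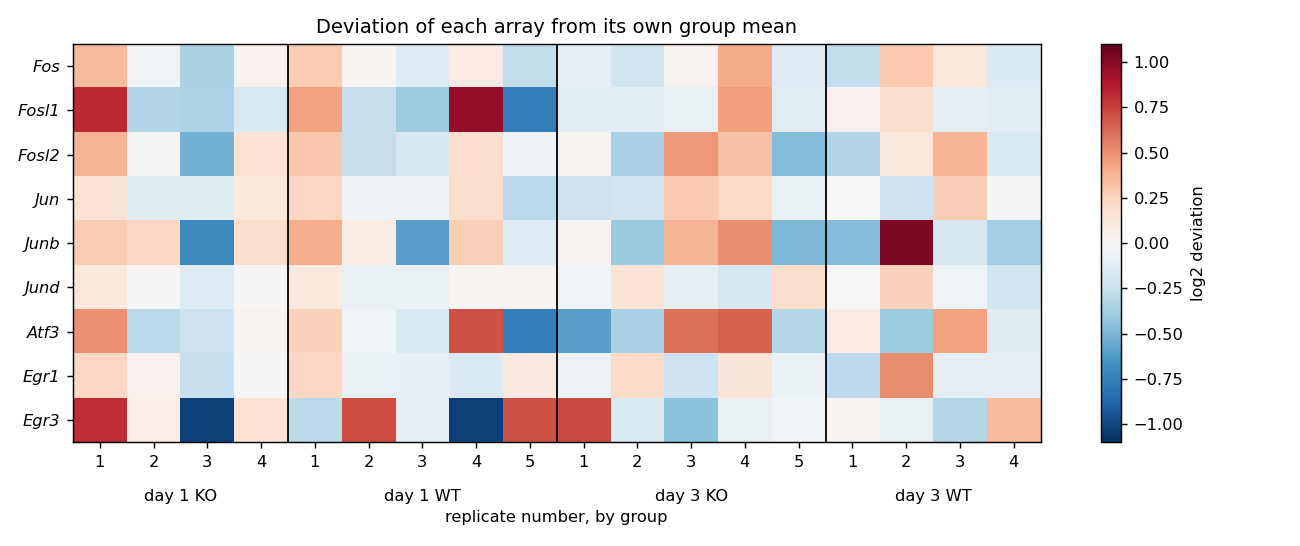
Deviation of each array from the mean of its own group, in log2 units by colour (red above, blue below, scale ending at 1.1), for the 9 tested genes in rows and the day 1 and day 3 arrays in columns, KO groups left of WT groups. Day 1 KO replicate 1 is above its mean in all 9 rows, and day 1 KO replicate 3 and day 1 WT replicate 3 are below in all 9.

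The genes whose group means ran most like each member over the 8 groups give its course in other terms. For Fos they were Adamts1, a secreted protease (Pearson r = 0.998), Cxcl14, a chemokine (0.997), and Snhg1, a small nucleolar RNA host gene (0.996). For Egr1 they included the small nucleolar RNA host genes Snhg6 and Snhg5 (0.997 each) with Galnt6, a glycosyltransferase (0.997). For Fosl1 the list held Bdkrb2, the bradykinin B2 receptor (0.994), whose mean was 4.27 in day 1 KO and 4.24 in day 1 WT and 2.17 in both sham groups. For Fosl2 it held Tubb6, a tubulin (0.999), Actn1, an actinin (0.998), and Parp3 (0.997). For Jun it held Zdhhc13, Trnau1ap and Myc (0.994, 0.994 and 0.993), and for Junb the heat shock protein gene Hspb1 (0.999), Sertad1 and Klf6 (0.997 each). Atf3 ran with Casp1, the inflammasome caspase (0.999), Cnn3 (0.998) and Fcgr2b, the inhibitory Fc receptor of myeloid and B cells (0.997). Egr3 ran with Dhodh (0.992), Deptor (0.991) and Cdkn2aipnl (0.988), and Jund with Bbx (0.955), Cadm4 (0.954) and Fyn (0.93). These r values describe 8 points that share arrays and a strong time course, and many genes come close: 244 of 11989 genes reached 0.95 with Fos, 420 with Fosl2, 304 with Atf3 and 2 with Jund. Among the members themselves Jun and Junb ran closest (0.993), then Fos and Egr1 (0.986), whereas Fosl1 and Atf3 gave 0.323.

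Other basic leucine zipper factors moved in the same direction at day 1. Of 25 listed, 21 were tested, and 17 were higher and 1 lower than sham in KO (20.9% of all probe sets higher and 23.7% lower) and also in WT (24.0% and 28.9%), with a median log2 difference of 0.90 in KO and 0.94 in WT, against -0.05 over all genes tested in each genotype. Listed genes could pass the filter through injured arrays alone. The counts and medians of this and the following lists thus describe the genes and do not measure a list against the background. Cebpd, a factor of acute inflammation, had 5.20 in KO and 5.41 in WT (adjusted p = 1.53e-15 and 1.42e-16), and its relative Cebpb had 2.64 and 2.63. Maff, a small Maf protein without a transactivation domain, had 3.92 and 4.08 at day 1 and fell by day 3, with day 3 minus day 1 differences of -1.98 and -1.83. Atf2, the CRE-binding partner of Jun, was the one called lower at day 1, by -0.43 in KO and -0.47 in WT. Jdp2, which competes with Fos for Jun, had 0.04 in KO and -0.17 in WT, neither called, and Maf, a factor of macrophages, was not called at day 1 and had 1.10 in KO and 1.34 in WT at day 7.

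Immediate early genes outside the set did not all follow Fos. Of 26 listed, 22 were tested, with 15 higher and 1 lower at day 1 in KO (20.9% and 23.7% of all probe sets) and 16 higher and 3 lower in WT (24.0% and 28.9%), and median differences of 1.23 in KO and 1.30 in WT. Myc had 4.03 in KO and 3.80 in WT at day 1, and Ier3, a target of NF-kB, had 1.68 and 2.09. Nr4a1, an orphan nuclear receptor that is a classical companion of Fos and Egr1 in stimulated neurons, had 0.24 in KO (adjusted p = 0.434) and 0.22 in WT (adjusted p = 0.437). Arc, the synaptic activity gene, had -0.29 in KO (not called) and -0.45 in WT (called) at day 1, and it was called lower in both genotypes at day 7 (-0.85 and -0.77), as Egr3 was. Rgs2, a regulator of G protein signals, was lower at day 1 (-0.38 and -0.57) and higher at day 7 (0.61 and 0.62). Egr2, the Egr member of myelinating Schwann cells, was higher in sham KO than in sham WT by 2.19 (adjusted p = 0.00507), and its day 1 response was 2.03 in KO and 4.22 in WT, an interaction of -2.19 (adjusted p = 0.111). Schwann cell and nerve root markers, a list of 6 tested genes that includes Egr2, had mean log2 values of 6.3 to 8.6 in sham KO arrays and 6.31 to 6.75 in sham WT arrays, and their part in the Egr2 difference was not tested.

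Upstream of AP-1, the MAP kinases and serum response factors were called in both directions. Of 20 tested genes, 8 were higher and 4 lower in day 1 KO and 6 higher and 6 lower in day 1 WT, with medians of 0.07 and 0.15. Over all probe sets 44.6% were called in day 1 KO (20.9% higher and 23.7% lower) and 52.9% in day 1 WT (24.0% and 28.9%). The mean over the 20 genes was 8.11 to 8.17 in sham KO arrays and 8.29 to 8.41 in day 1 KO arrays. In WT it was 8.09 to 8.12 in sham and 8.29 to 8.37 at day 1. Mapk8, which encodes the kinase JNK1, was lower in both genotypes at all 3 times, by -0.66 in KO and -0.79 in WT at day 1 and by -1.38 and -1.31 at day 3. Srf, serum response factor itself, had 0.35 in KO (adjusted p = 0.00796) and 0.19 in WT (adjusted p = 0.112) at day 1. Elk3, a ternary complex factor, had 2.06 and 2.24, and Map2k3, a kinase of p38, had 1.19 and 1.52.

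The phosphatases and Sprouty proteins that feed back on MAP kinases were mostly higher at day 1 and lower again at day 3. Of 13 tested, 10 were higher and 0 lower in day 1 KO (20.9% and 23.7% of all probe sets) and 12 higher and 1 lower in day 1 WT (24.0% and 28.9%), with medians of 0.78 and 0.82 against -0.05 over all genes in each genotype. At day 3, 10 in KO and 9 in WT were lower than at day 1, where 27.2% of all probe sets were lower in KO and 15.4% in WT. Dusp5, a nuclear ERK phosphatase, had 2.49 in KO and 2.69 in WT at day 1, and 0.39 and 0.55 at day 7, which were not called. Spry2 had 1.21 and 1.65 at day 1 and day 3 minus day 1 differences of -0.99 and -1.22. Dusp6, the cytoplasmic ERK phosphatase, was an exception, with 1.70 and 2.05 at day 1 and still 1.29 and 1.47 at day 7, all called. Dusp1 had 1.26 and 1.39 at day 1, and Dusp8 had -0.33 (not called) and -0.57 (called).

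Textbook target genes of AP-1 were mostly higher and differed in how long. Of 20 tested, 14 were higher and 1 lower in day 1 KO (20.9% and 23.7% of all probe sets) and 13 higher and 1 lower in day 1 WT (24.0% and 28.9%), with medians of 1.65 and 1.75. At day 7, 14 were higher in KO (19.8% of all probe sets) and 15 in WT (21.8%). Il6, the cytokine, had 4.15 in KO and 4.12 in WT at day 1 and -0.02 and 0.01 at day 7, a course that like Fosl1 was limited to day 1 among the called differences. Timp1, a metalloprotease inhibitor, had 8.02 and 8.07 at day 1 and still 5.73 and 5.74 at day 7. Hmox1, heme oxygenase, had 6.84 and 7.42 at day 1 and its largest difference at day 3, 8.40 and 8.37. Ccnd1, cyclin D1, had 1.55 and 2.09 at day 1, and Plaur, the urokinase receptor, had 2.06 and 1.93. Vegfa was the one called lower, by -0.57 and -0.42. Microglia and macrophage markers had, over the same days, mean log2 values of 5.6 to 6.14 in sham KO, 7.95 to 8.55 in day 1 KO, 10.03 to 10.75 in day 3 KO and 10.11 to 10.19 in day 7 KO. At day 7, 12 of 12 were called higher in both genotypes (19.8% of all probe sets in KO and 21.8% in WT). At day 1, 7 were called higher and 1 lower in KO (20.9% and 23.7% of all probe sets) and 9 higher and 1 lower in WT (24.0% and 28.9%). The lower one was P2ry12, a receptor of resting microglia (-3.46 in KO and -2.80 in WT), Tmem119 was not called (-0.44 and -0.59), and the macrophage genes Msr1 (6.84 and 6.63) and Arg1 (8.99 and 8.77) were far higher. Their part in the rise of Atf3 or of the target genes was not tested.

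Genes that accompany Atf3 and Jun in axotomised neurons were called in both directions at day 1, more of them higher. Of 17 tested, 9 were higher and 3 lower in day 1 KO (median 0.37) and 8 higher and 4 lower in day 1 WT (median 0.32). Over all probe sets 44.6% were called in KO (20.9% higher and 23.7% lower) and 52.9% in WT (24.0% and 28.9%). Sprr1a, a marker of regenerating axons, had 3.81 in KO and 4.52 in WT at day 1 and 6.03 and 7.01 at day 7. Hspb1 had 4.89 and 4.81 at day 1 and fell afterwards, as Junb did. Gal, the neuropeptide galanin, had 1.31 and 0.95, Sox11 1.05 and 0.93, and Gap43, the growth cone protein, 0.53 and 0.38, all called. Vip, a neuropeptide, was lower by -1.77 and -2.22, and Stmn4 by -0.49 and -0.60. None of the genes of these 6 lists other than Egr2 was called between KO and WT in any of the 4 conditions.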

How the data were processed

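Total RNA of thoracic cord was extracted with Trizol and 1 µg was made into biotinylated cRNA, per the labels' protocols. The authors deposited log2 values per probe set of an Affymetrix array, computed with GCRMA per the submitters' processing notes (version not stated), and they were used as given. The number of arrays limits the precision, and the labels call the arrays biological replicates. No pair of arrays was identical (0 pairs).

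Groups followed the titles. The 64 array controls were removed, and 24573 probe sets passed a minimum log2 value of 4 on 4 or more arrays, 10 of the 15 of the described genes among them. All 34 arrays entered 1 linear model of 8 group means in limma 3.58.1 under R 4.3.3 (lmFit, eBayes, 26 residual degrees of freedom), with Benjamini-Hochberg adjustment over all tested probe sets of a comparison and a threshold of 0.05. The fit was tested on simulated data. A gene with several tested probe sets is given by the one that was brightest on average. Gene names came from the platform annotation, updated through the RefSeq table of GRCm38.p6. Likeness was Pearson's r over 8 group means, with the 3 highest genes named for each member.

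The described genes, the lists and the tests were chosen with earlier results of these data known. Of each other list, its first 4 genes and the 2 largest and 2 smallest day 1 differences of each genotype could be named. Alternatives covered the filter, the probe set, the variance prior, array weights, the arrays in the fit, the replicate number, scaling, the group of the 2 arrays with conflicting labels, a fold of 1.5, the muscle signal and each array left out. Protein sequences were not used here.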

Additional observations from a re-analysis of the deposited data

Results flagged for a closer look

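In 70 groups of a probe set with 4 or 5 arrays, the highest and the lowest array were compared with the rest by Dixon's ratio. An array stood apart in 2 of the 70, which does not exceed the about 1 in 20 that chance gives. On Fosl1 the array day 1 KO replicate 1 read 5.56, while the other day 1 KO arrays read 4.4 to 4.57. On Junb the array day 1 KO replicate 3 read 4.63, while the other day 1 KO arrays read 5.54 to 5.62. These are the same arrays that lay above and below their group mean for all 9 tested genes, Fosl1 and Junb among them.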

How the results depend on the processing

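Over 46 alternative settings, 34 of which left out 1 array, 141 of 180 combinations of a gene and a comparison never changed their call, 94 single results dropped out of the called set, 22 entered it, and 0 turned their direction. No setting called a gene between KO and WT or in an interaction. The 180 combinations include these, so every change fell among the comparisons with sham or between injured times. The 2 day 1 WT arrays regrouped by source and time fields gave 1 called gene for day 3 WT against day 1 WT, 0 for day 7 WT against day 3 WT, 2 for day 3 KO against day 1 KO, 2 for day 7 KO against day 3 KO and 1 for day 7 WT against day 1 WT, where the counts had been 5, 4, 5, 6 and 8. That setting places arrays titled day 1 among sham and day 7. Fosl1 read at least 3.89 on every array titled day 1 WT, these 2 included, and 2.17 or 2.18 on every sham and day 7 array. Requiring a 1.5-fold difference gave 2 for day 7 WT against day 3 WT and 3 for day 7 KO against day 3 KO. Fitting only the arrays compared gave 2 for day 7 WT against day 3 WT and 3 for day 3 KO against day 1 KO, and a filter at log2 6, which leaves fewer genes, gave 3 for day 3 KO against day 1 KO. Leaving out 1 array gave 2 to 4 for day 7 WT against day 3 WT, 4 to 7 for day 3 KO against day 1 KO, 4 to 5 for day 3 WT against day 1 WT and 4 to 6 for day 7 KO against day 3 KO. Leaving out 1 array gave 7 to 8 for every comparison with sham, and the other settings gave 5 to 8. The regrouping lost Fos (adjusted p = 0.135 in KO and 0.0527 in WT) and Egr1 (0.222 and 0.0938) at day 7 against sham. It moved no KO array, and the day 7 log2 differences in KO stayed at 0.86 for Fos and 0.44 for Egr1. In WT they became 0.99 and 0.53. The cause of the other changes was not tested. Deviations of same-numbered KO and WT arrays correlated at r from -0.36 to 0.32 and at over 0.1 in 6 of 16 pairs, among them day 1 replicates 1, 2 and 3 (0.21, 0.18 and 0.32) but not 4 (-0.12), so the numbers were not taken as pairs, and with a replicate block the counts against sham were 7 or 8, with no count moved by over 1.5 times. Signal near the floor of 2.17 limits Fosb and Fosl1.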
